A study of Rattus norvegicus with 12 samples.

Results

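The interleukin-1 (IL-1) family genes of rat disc cells are described here: 8 genes, chosen by name, of the 12899 that the study's deposited tables have in common. They are the agonist genes Il1a and Il1b, the antagonist gene Il1rn, the receptor genes Il1r1 and Il1rap, the cytokine gene Il33 with its receptor gene Il1rl1, and Il18. All 8 had values in every table. The material was primary nucleus pulposus cells, the cells at the centre of the intervertebral disc, of Wistar rats, with age and sex not given in the sources used here. Cells grew out of explanted tissue and carried a lentiviral control vector (PLKO) or a lentiviral short hairpin RNA against TonEBP (shTon), so all groups were transduced. TonEBP is the product of Nfat5, a transcription factor with which cells adapt to high osmolarity. Cells were left untreated (CTR) or received the inflammatory cytokine TNF-a at 50 ng/mL for 24 h (TNF). The 12 RNA-seq libraries formed 4 groups of 3, PLKO_CTR, PLKO_TNF, shTon_CTR and shTon_TNF, each with libraries numbered as sets 1 to 3 in their titles. What a set stands for (animal, culture or day) is not stated, and p-values therefore cover only the spread among these libraries, which may be technical. Libraries held 7160042 to 18646798 reads on listed genes.

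IL-1a and IL-1b both act through the receptor encoded by Il1r1, which signals only after the accessory protein encoded by Il1rap joins it. The antagonist encoded by Il1rn occupies the same receptor without recruiting that partner, and so blocks both agonists. IL-33 signals through ST2, the product of Il1rl1, with the same accessory protein, and IL-18 has receptors of its own. IL-1b and IL-18 are made as precursors that caspase-1 cleaves in inflammasomes, whereas IL-1a and IL-33 can act when they leave damaged cells. In the disc, IL-1 is known for raising proteases that break down the matrix.

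The promoter sequences of the 2 agonist genes, the antagonist gene and the IL-1 receptor gene are shown because these 4 genes passed a test, with TNF-a in control cells or with the knockdown in untreated cells. Each is the 250 bases before the RefSeq start site of the GRCr8 assembly, read on the gene's own strand. Capitals mark matches to 4 motifs, searched on both strands: the kappaB element, which binds NF-kappaB, the TonE element, which binds TonEBP, the AP-1 site TGANTCA and the TATA element TATAAA.
Il1a, chr3:136990018-136990267, minus strand: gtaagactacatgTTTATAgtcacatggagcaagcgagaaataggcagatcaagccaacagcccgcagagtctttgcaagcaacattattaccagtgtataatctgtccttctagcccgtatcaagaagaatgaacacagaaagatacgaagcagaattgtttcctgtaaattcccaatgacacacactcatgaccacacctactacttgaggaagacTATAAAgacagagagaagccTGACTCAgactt
Il1b, chr3:137036582-137036831, minus strand: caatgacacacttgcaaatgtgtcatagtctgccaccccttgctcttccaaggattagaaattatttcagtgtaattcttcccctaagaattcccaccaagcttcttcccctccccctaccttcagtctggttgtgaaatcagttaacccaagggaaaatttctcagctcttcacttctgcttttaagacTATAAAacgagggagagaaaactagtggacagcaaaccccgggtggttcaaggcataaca
Il1rn, chr3:27520072-27520321, plus strand: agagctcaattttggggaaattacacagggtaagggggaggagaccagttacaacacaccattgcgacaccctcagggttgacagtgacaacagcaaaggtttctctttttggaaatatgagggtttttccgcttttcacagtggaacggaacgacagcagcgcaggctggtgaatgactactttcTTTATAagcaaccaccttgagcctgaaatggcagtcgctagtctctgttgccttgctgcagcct
Il1r1, chr9:50034133-50034382, plus strand: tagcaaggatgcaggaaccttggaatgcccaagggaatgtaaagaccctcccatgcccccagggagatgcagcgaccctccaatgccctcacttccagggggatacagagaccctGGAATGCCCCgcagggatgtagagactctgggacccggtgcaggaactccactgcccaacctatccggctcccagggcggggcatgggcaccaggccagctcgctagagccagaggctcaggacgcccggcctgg
The search window also took in the 50 bases after the start, and positions are counted from the start site as 0. Il1a held the AP-1 match TGACTCA at -12 and TATA matches at -32 and -237, and Il1b a TATA match at -60. Il1rn held a TATA match at -64 and, past the stretch printed, the TonE match TGGAAATCTGC at 5. Il1r1 held the kappaB match GGAATGCCCC at -135, and Il1rap was the other member with a kappaB match. Of 33469 RefSeq promoters of 300 bases, 7.51% held the kappaB element, 5.98% the TonE element, 7.33% the AP-1 site and 14.2% the TATA element. A match is a description of these letters and no evidence of binding. RefSeq entries were found for 8 of 8 members, with 2 entries each for Il33 and Il1rap. Il1a and Il1b lie next to each other on chromosome 3, with 0 protein-coding genes between them. On chromosome 9, Il1r1 and Il1rl1 are parted by 1 gene, Il1rl2.

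The knockdown was checked on Nfat5 before the members were read. Its log2 difference did not pass in limma with the set as a block. That difference was -1.61 without TNF-a (SE 0.33, adjusted p = 0.0963) and -0.26 with TNF-a (SE 0.44, adjusted p = 0.799). The authors' deposited values are -1.19 (adjusted p = 4.57e-05) and -0.032 (adjusted p = 0.987). With TNF-a in control cells Nfat5 was lower in 3 of 3 sets, a change of -0.775 that did not pass (adjusted p = 0.165). Untreated, Nfat5 stood at 685, 1363 and 1818 normalised reads in sets 1 to 3 of the control vector and at 458, 457 and 288 in the shTon libraries. With TNF-a it stood at 642, 1092 and 483 in control cells and at 1695, 500 and 232 in the libraries labelled shTon. By its Nfat5 level alone, the library labelled shTon_TNF of set 1 thus goes against its label, with 1.41 (log2) more Nfat5 than its control partner. It held less Il1b and Il1rn than that partner, by 2.63 and 1.63 (log2), and every other member was lower by value too. Below, going against its label refers to Nfat5 only, and the reason for it was not tested. The members' log2 differences for the knockdown with TNF-a are also given without this library. Here and below, normalised reads are recovered reads divided by 1 factor per library on a scale common to the 12 libraries. No gene lengths were used, so levels are compared between libraries and not between genes.

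Transcripts of both agonist genes rose steeply with TNF-a. Il1a stood at 22.0, 36.3 and 4.16 normalised reads in sets 1 to 3 of untreated control cells and at 190.2, 620.1 and 62.1 after TNF-a. Every treated library lay above every untreated one. In shTon cells Il1a was at 2.83, 19.2 and 7.81 without TNF-a and at 59.8, 203 and 109 with it, again with no overlap. The log2 fold change was 3.59 in control cells (SE 0.25, adjusted p = 0.00132, limma with the set as a block), a 12.1-fold rise, and 3.66 in shTon cells (SE 0.27, adjusted p = 0.00138), a 12.6-fold rise. In bulk samples, more cells of a type and more RNA per cell cannot be told apart.

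Il1b was close to the detection limit without TNF-a and also rose with it. Control cells held 28.3, 10.6 and 0 normalised reads untreated, from 45, 14 and 0 reads, and 432, 549.6 and 35.5 with TNF-a. Untreated shTon cells held 1, 3 and 0 Il1b reads, and TNF-a brought the levels to 68.3, 95.2 and 21.2 normalised reads. A count of 0 allows up to 3 reads. The groups with and without TNF-a did not overlap in either background. The log2 fold change was 4.96 in control cells (SE 0.37, adjusted p = 0.00176) and 4.67 in shTon cells (SE 0.39, adjusted p = 0.00224). Because untreated counts were so low, the size of this change depends on the pseudocount: with 0.1 in place of 1 it was 6.10 in control cells (adjusted p = 0.0151) and 6.15 in shTon cells (adjusted p = 0.0124).

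**Figure D1:**
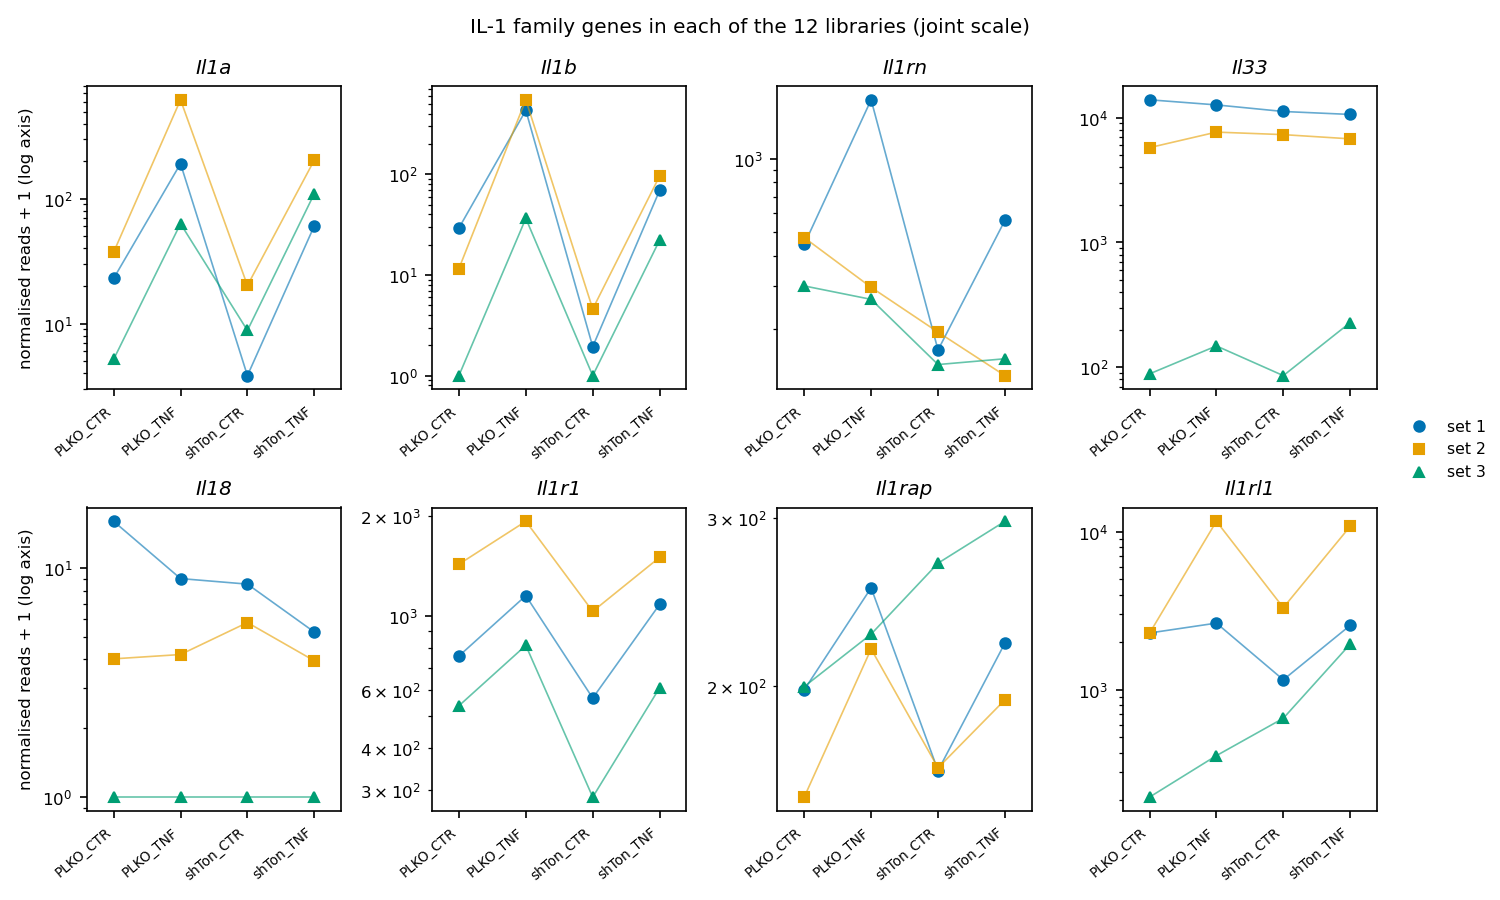
Normalised reads + 1 (log axis) of the 8 IL-1 family genes in each of the 12 libraries, 1 panel per gene and 1 point per library. Colour and symbol mark sets 1 to 3 and thin lines join the libraries of a set. Il1a and Il1b are higher in every library with TNF-a than in its untreated partner, while Il33 separates by set, with set 3 between 84.6 and 227.

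Among the 7 members tested in control cells, 3 rose with TNF-a (Il1a, Il1b and Il1r1) and 0 fell, against 9.62% of all genes tested in either direction and 4.97% higher. In shTon cells 4 of 7 rose (Il1a, Il1b, Il1r1 and Il1rl1), against 3.28% of all genes tested in either direction and 1.95% higher. A test needed a mean of 10 normalised reads over the libraries compared. In shTon cells Il1a and Il1b reached it only through the libraries with TNF-a, as their untreated means were 9.94 and 1.51. The count of 4 thus depends in part on that filter. Groups with and without TNF-a did not overlap for Il1a, Il1b and Il1rap in control cells and for Il1a and Il1b in shTon cells, against 5.95% and 5.5% of all genes apart in that direction. In both backgrounds and all 3 sets, 5 of the 7 members were higher with TNF-a by value, namely Il1a, Il1b, Il1r1, Il1rap and Il1rl1, compared with 12.3% of all genes. These calls rest on the set as a block. Without it 0 members passed in either background, with adjusted p = 0.645 for Il1a and 0.667 for Il1b in control cells, and 0.401 and 0.366 in shTon cells.

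With the knockdown, agonist transcripts were lower by value in some sets, and no difference passed in limma on all 3 sets. With TNF-a, Il1b was lower in the shTon library of 3 of 3 sets, by 2.63, 2.51 and 0.72 on the log2 scale. Over the 3 sets its log2 difference was -1.95 (SE 0.38, 95% interval -2.82 to -1.09), which did not pass in limma (adjusted p = 0.08) or in edgeR (adjusted p = 0.0608). DESeq2 gave -2.15 (adjusted p = 3.61e-06), and the authors' deposited table lists -1.58 with an adjusted p of 1.03e-06. Without the library that goes against its label, the difference was -1.62 and passed (adjusted p = 0.0284). That fit rests on sets 2 and 3, as does the fit without set 1 (adjusted p = 0.0228), so the estimate is the same. The difference also passed without set 3 (adjusted p = 0.0122), and not without set 2 (adjusted p = 0.054). Il1a was lower in sets 1 and 2 with TNF-a, by 1.64 and 1.60, and higher in set 3, by 0.80. Its log2 difference of -0.82 did not pass (SE 0.45, adjusted p = 0.398). It was -0.40 without the library that goes against its label (adjusted p = 0.676) or without the whole of set 1 (0.655), -0.42 without set 2 (0.864) and -1.62 without set 3 (0.0362), the 1 of these that passed.

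Without TNF-a the agonists were too low for a firm comparison. Il1b did not reach the mean of 10 normalised reads needed for the main limma test, and no difference was tested there. The authors' deposited log2 value is -0.441, without an adjusted p. Il1a had a log2 difference of -0.91 (SE 0.63, 95% interval -2.39 to 0.58, adjusted p = 0.499), lower in sets 1 and 2 and higher in set 3.

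No change of the antagonist gene with TNF-a passed the test. Il1rn, present in all libraries, stood at 444, 474 and 299.6 normalised reads in untreated control cells and at 1749, 296 and 264 after TNF-a. It was higher with TNF-a in set 1 and lower in sets 2 and 3. In shTon cells it stood at 163, 193 and 142 untreated and at 558, 128 and 149.9 with TNF-a, and again only the set 1 library was clearly higher. The log2 fold change with TNF-a was 0.37 in control cells (SE 0.45, 95% interval -0.69 to 1.43, adjusted p = 0.623) and 0.42 in shTon cells (SE 0.40, adjusted p = 0.624). Without set 1 it was -0.43 and -0.26.

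Il1rn was the member that fell with the knockdown in untreated cells. All 3 shTon_CTR libraries, at 142 to 193 normalised reads, lay below all 3 PLKO_CTR libraries, at 299.6 to 474. The log2 difference was -1.27 (SE 0.15, 95% interval -1.62 to -0.92, adjusted p = 0.0438), to 0.414 of the control level. It was the 1 call among 6 members tested, against 0.113% of all genes tested in either direction and 0.0969% lower. The margin was narrow: without set 2 the adjusted p was 0.155, with a pseudocount of 0.1 it was 0.0569, without the mean-variance trend 0.193, and with all 12 libraries in 1 fit 0.248. Without the block it was 1.0. DESeq2 with the block called 2 members, Il1rn and Il1r1, and the authors' deposited table lists Il1rn at -1.09 with an adjusted p of 3.11e-06. Of all genes, 5.13% were likewise lower without overlap and 20.2% lower in all 3 sets.

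With TNF-a the shTon library again held less Il1rn in 3 of 3 sets, by 1.63, 1.20 and 0.81 on the log2 scale, as did 19.8% of all genes. The log2 difference of -1.22 (SE 0.21, 95% interval -1.69 to -0.75) did not pass in limma (adjusted p = 0.0775). Nor did it pass in edgeR (adjusted p = 0.0716), with a pseudocount of 0.1 (0.101), without the trend (0.172), with all 12 libraries in 1 fit (0.18) or without the block (0.849). It passed in DESeq2 (-1.24, adjusted p = 0.000233), and the authors' deposited table lists -1.05 with an adjusted p of 0.000191. Without the library that goes against its label it was -1.01 and passed (adjusted p = 0.0361). The fit without set 1 gives the same estimate, as both rest on sets 2 and 3 (adjusted p = 0.0385). The difference also passed without set 2 or set 3 (adjusted p = 0.0428 and 0.0378). In limma on all 3 sets, 0 of 7 members passed with TNF-a, against 0.254% of all genes tested in either direction and 0.139% lower. Il1rn and Il1r1 were the 2 members of 7 lower with the knockdown in all 3 sets both without and with TNF-a, a pattern held by 11.2% of all genes.

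**Figure D2:**
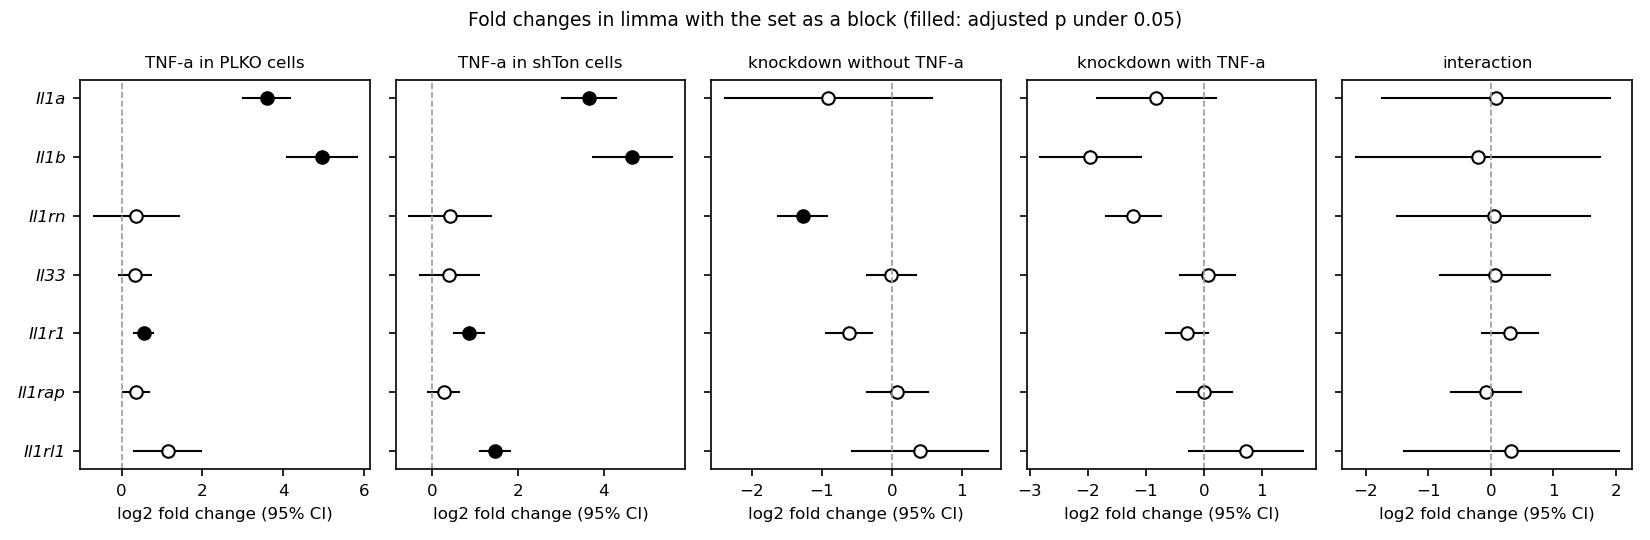
Log2 fold changes of the tested members in each comparison, as points with 95% confidence intervals from limma with the set as a block. The panels hold 7 members, except the knockdown without TNF-a, which holds 6 because Il1b was too low there. Filled points passed an adjusted p of 0.05. Il1a and Il1b stand far to the right with TNF-a in both backgrounds, and Il1rn at -1.27 is the filled point for the knockdown without TNF-a. The rightmost panel is the difference between the TNF-a effects in shTon and PLKO cells, where all intervals cross 0.

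The ratio of antagonist to agonist reads was lower with TNF-a in every set of both backgrounds. It is built from the levels above, so its fall restates the agonists' rise and is no separate result. A ratio of reads is not a ratio of molecules, as no lengths were used, but its change within a set is free of length. The log2 ratio of Il1rn to Il1a, on normalised reads + 1, went from 4.28, 3.67 and 5.86 in untreated control cells to 3.19, -1.07 and 2.07 with TNF-a. In shTon cells it went from 5.42, 3.27 and 4.02 to 3.20, -0.67 and 0.46. The ratio to Il1b moved the same way, from 3.93, 5.36 and 8.23 to 2.02, -0.89 and 2.86 in control cells, where the value of 8.23 rests on 0 Il1b reads. In shTon cells it went from 6.40, 5.40 and 7.16 to 3.01, 0.42 and 2.77, from untreated counts of 1, 3 and 0 Il1b reads. Set 2 was the set in which agonist reads outnumbered Il1rn reads, with 581 Il1a and 515 Il1b reads beside 277 Il1rn reads in its PLKO_TNF library.

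**Figure D3:**
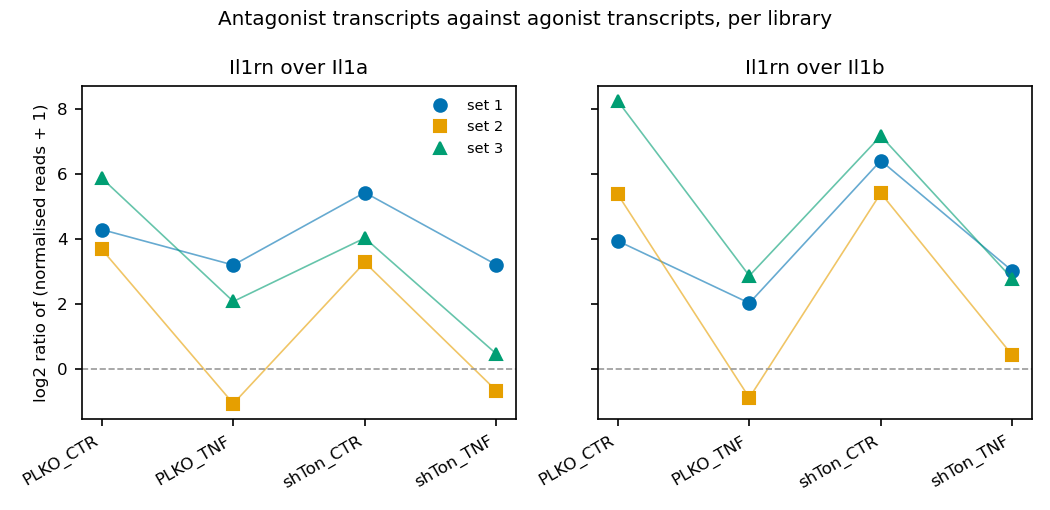
Log2 ratio of Il1rn to Il1a (left) and to Il1b (right), from normalised reads + 1, in each of the 12 libraries, with colour and symbol for the set and lines joining a set. The dashed line at 0 marks equal normalised reads, not equal molecules. In all 3 sets and both backgrounds the ratio is lower with TNF-a, and it is below 0 in set 2 for Il1a and in the PLKO_TNF library of set 2 for Il1b.

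Of the receptor genes, Il1r1 passed with TNF-a in both backgrounds and Il1rl1 in shTon cells. Il1r1, the signalling receptor, stood at 757, 1433 and 536 normalised reads in untreated control cells and at 1152, 1931 and 815 with TNF-a. Every set was higher with TNF-a, by 0.60, 0.43 and 0.61 on the log2 scale, although the sets differed so much that the groups overlapped. The log2 fold change of 0.55 passed (SE 0.10, adjusted p = 0.0223), a 1.46-fold rise. In shTon cells, Il1r1 went from 565, 1033 and 284 to 1084, 1503 and 607, a log2 fold change of 0.86 (SE 0.15, adjusted p = 0.0304). Neither call was firm: the first was lost without set 2 (adjusted p = 0.0546), with all 12 libraries in 1 fit (0.0517), without the trend (0.0975) and without the block (0.842), and the second without set 3 (0.0622), without the trend (0.0964) and without the block (1.0).

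With the knockdown, Il1r1 was lower by value in all 3 sets, by 0.43, 0.48 and 0.91 on the log2 scale without TNF-a. The log2 difference was -0.61 (SE 0.14, 95% interval -0.94 to -0.28, adjusted p = 0.116 in limma and 0.0482 in DESeq2), and with TNF-a it was -0.29 (SE 0.16, adjusted p = 0.399), or -0.39 without the library that goes against its label (0.373). Il1rap, the accessory protein shared by the IL-1 and IL-33 receptors, varied least of the 8 members, from 152 to 297 normalised reads over the 12 libraries. It was higher with TNF-a in all 3 sets of both backgrounds, with log2 fold changes of 0.35 (SE 0.14, adjusted p = 0.147) and 0.28 (SE 0.15, adjusted p = 0.385) that did not pass. The knockdown differences of Il1rap were 0.08 (95% interval -0.35 to 0.51) without and 0.01 (95% interval -0.46 to 0.48) with TNF-a, the second being 0.11 without the library that goes against its label (adjusted p = 0.89).

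Il1rl1, which encodes the IL-33 receptor ST2, was higher with TNF-a in all 3 sets of both backgrounds. In control cells it went from 2283, 2275 and 208 normalised reads to 2637, 11625 and 382, differences of 0.21, 2.35 and 0.87 on the log2 scale of the table of control cells. The log2 fold change was 1.14 (SE 0.35, adjusted p = 0.0861) and did not pass, but it passed when set 1 (1.61, adjusted p = 0.0384) or set 3 (1.28, adjusted p = 0.0218) was left out, and was 0.54 without set 2 (adjusted p = 0.148). In shTon cells Il1rl1 went from 1154, 3303 and 659 to 2553, 10806 and 1943. That rise of 1.47 (SE 0.15, adjusted p = 0.00456) was a 2.77-fold one, and it was lost with all 12 libraries in 1 fit (adjusted p = 0.204) and without the block (1.0). The knockdown differences of Il1rl1, 0.40 without and 0.73 with TNF-a, changed sign among the sets and did not pass (adjusted p = 0.668 and 0.423). Without the library that goes against its label, the second was 1.12 (adjusted p = 0.13).

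Il33, an alarmin cytokine, differed among the sets far more than between the groups. Set 1 held 10623 to 13923 normalised reads, set 2 held 5755 to 7667, and set 3 held 84.6 to 227. The set means were 12109 ± 1484, 6878 ± 835 and 137 ± 66.9 (SD, n = 4 libraries, 1 of each group), 88.7-fold between the highest and the lowest (adjusted p = 2.62e-08, limma F test among sets). The log2 fold change of Il33 with TNF-a was 0.34 in control cells (SE 0.17, 95% interval -0.05 to 0.73, adjusted p = 0.225) and 0.41 in shTon cells (SE 0.29, adjusted p = 0.498), and neither passed. The knockdown differences were -0.01 without (95% interval -0.36 to 0.34) and 0.07 with TNF-a (95% interval -0.40 to 0.54), or 0.22 without the library that goes against its label (adjusted p = 0.705).

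Of the 7 members tested, 6 differed among sets, against 45.4% of all genes, and Il1rap was the exception (adjusted p = 0.0894). Il1rl1 averaged 2157, 7002 and 798 normalised reads in sets 1 to 3, and Il1b 132, 165 and 14.2. Summed skeletal muscle markers, 10 of 10 of them measured, also separated the sets: 42099.7 to 96379.7 normalised reads in set 1, 16264 to 29601 in set 2 and 171 to 256 in set 3. Il33 and these markers were highest in set 1 and lowest in set 3. Il1rl1 was highest in set 2 and lowest in set 3. The marker sum also differed between groups within sets. It was higher in shTon_CTR than in PLKO_CTR in every set, at 96380, 29601 and 256 beside 53273, 19568 and 190. With TNF-a it was lower by value in every set of both backgrounds. Between the TNF-a-treated groups its direction varied among the sets. For the knockdown without TNF-a, 9 of the 10 markers were higher by value and 0 passed in limma. The part of the muscle transcripts in the members' differences among sets and between groups was not tested.

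**Figure D4:**
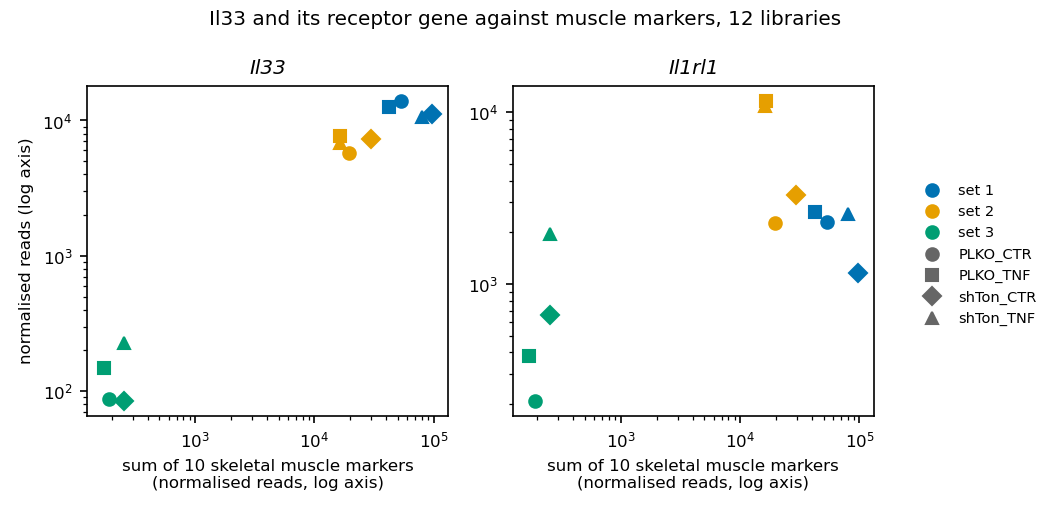
Il33 (left) and Il1rl1 (right) in normalised reads against the sum of 10 skeletal muscle marker genes in the 12 libraries, on log axes, with colour for the set and symbol for the group. The 4 libraries of set 3 lie at the lower left for Il33, at 84.6 to 227 normalised reads with marker sums of 171 to 256.

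Il18 was barely detected. It had 24 reads in the PLKO_CTR library of set 1, at most 13 in any other library and 0 in all 4 libraries of set 3, where a count of 0 allows up to 3 reads. The highest level was 15.1 normalised reads, and the gene did not enter any test. A difference between groups was not detectable at this depth.

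Whether the knockdown changed the response to TNF-a was tested as the interaction, the TNF-a effect in shTon cells minus that in control cells. It passed for 0 of 7 members and 0 of 12310 genes in limma (0%), where 219 genes had an unadjusted p under 0.05, and for 0 genes in edgeR (259 unadjusted) and DESeq2 (275 unadjusted). The intervals were wide for the ligands: 0.08 for Il1a (95% interval -1.74 to 1.90), -0.21 for Il1b (-2.16 to 1.74) and 0.05 for Il1rn (-1.50 to 1.59). They were narrower for Il1r1, at 0.31 (-0.14 to 0.76), for Il1rap, at -0.08 (-0.64 to 0.48), and for Il33, at 0.07 (-0.82 to 0.95), and for Il1rl1 the value was 0.33 (-1.39 to 2.04). These values include the library that goes against its label. Nfat5 was not clearly lower in the TNF-a-treated shTon libraries (log2 difference -0.26, 95% interval -1.27 to 0.76), which limits what the interaction can show about the knockdown. By mean level, Il1a and Il1b had the same order of groups, from PLKO_TNF through shTon_TNF and PLKO_CTR to shTon_CTR. Of the neighbours in that order for Il1a, only shTon_TNF and PLKO_CTR differed by more than the larger SD and without overlap. For Il1b, PLKO_TNF with shTon_TNF and shTon_TNF with PLKO_CTR differed by more than the larger SD, with overlap. For the other 6 members no neighbouring groups differed by more than the larger SD.

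Of 16 tested genes for signalling just after the receptors, 3 rose with TNF-a in control cells, where 4.97% of all genes did: Peli1, an E3 ubiquitin ligase acting on IRAK proteins, by 1.20 (SE 0.18, adjusted p = 0.0146), Irak2, a kinase of the receptor complex, by 0.62 (SE 0.13, adjusted p = 0.0334), and Ikbkb, the IKK-beta subunit, by 0.53 (SE 0.11, adjusted p = 0.0319). The number that fell was 0, and in shTon cells 0 of 16 passed. Leaving out any 1 set left 1 of 16 higher in control cells, with adjusted p = 0.0616 to 0.0868 for Irak2 and 0.0511 to 0.0917 for Ikbkb, and leaving out the block left 0. The median log2 fold change of the list was 0.12 in control cells, beside -0.01 over all genes. Myd88, the adaptor of all these receptors, had a log2 fold change of -0.37 that did not pass (adjusted p = 0.0778).

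Nlrp3, the sensor of the inflammasome that activates caspase-1, was the gene that rose among those for cytokine processing and release, 1 of 15 tested in each background. Of all genes, 4.97% rose in control and 1.95% in shTon cells, so that 1 call is no result about the list. It went from 442 ± 192 to 2112 ± 525 normalised reads of the deposited table in control cells (SD, n = 3), a log2 fold change of 2.34 (SE 0.15, adjusted p = 0.000886), and rose by 2.27 in shTon cells (SE 0.16, adjusted p = 0.00132). Without the block the adjusted p was 0.324 and 0.0634. Casp1, which encodes caspase-1, had a log2 fold change of 0.29 (adjusted p = 0.341) in control cells. The median of this list was -0.09, beside -0.01 over all genes. Of the other IL-1 family ligands and receptors, 5 of 13 were tested, namely Il1r2, Il1rl2, Il18r1, Il18rap and Il18bp, and 0 passed in any comparison. Il1r2, a decoy receptor that binds agonists without signalling, was low, at 1.47 to 72.3 normalised reads in the table of control cells.

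Genes known as targets of both IL-1 and TNF rose widely with TNF-a. In control cells 10 of 16 rose and 1 fell, with a median of 1.53 (log2), beside -0.01 over all genes, and in shTon cells 10 rose and 0 fell. Of all genes, 4.97% rose in control and 1.95% in shTon cells. Without the block 0 and 2 rose. Il6 was among the 10 in control cells in limma (adjusted p = 0.0471), whereas its deposited adjusted p is 0.129. The largest rises were those of Ccl20, a chemokine, at 3.49 (SE 0.21, adjusted p = 0.000886), Tnfaip3, an inhibitor of NF-kappaB signalling, at 2.78 (SE 0.11, adjusted p = 0.000213), and the matrix proteases Mmp3 at 2.75 (SE 0.28, adjusted p = 0.00455) and Mmp13 at 2.74 (SE 0.15, adjusted p = 0.000685). Nfkbiz, an atypical member of the IkappaB family, fell by 0.71 (log2) in control cells (SE 0.16, adjusted p = 0.0373), a call lost without set 1 (0.0723) or set 2 (0.075). With the knockdown, the medians of the list were -0.84 without and -0.60 with TNF-a, beside 0.01 and 0.02 over all genes. Among its 16 genes 1 call was made in limma, against 0.139% of all genes lower with TNF-a, for Il6, an inflammatory cytokine, with TNF-a (-1.92, SE 0.16, adjusted p = 0.0231). Without the library that goes against its label, limma called 4 of 16 lower with TNF-a, and without the block 0. More of the list is lower at 0.05 in the authors' deposited values. There Il6, Ccl20, Cxcl1, Mmp3 and Mmp13 are lower both without and with TNF-a (for Il6, adjusted p = 1.77e-09 and 4.39e-15). None of the 16 is higher at 0.05. The target list does not separate IL-1 from TNF-a as the inducer, and the cells received TNF-a.

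**Figure D5:**
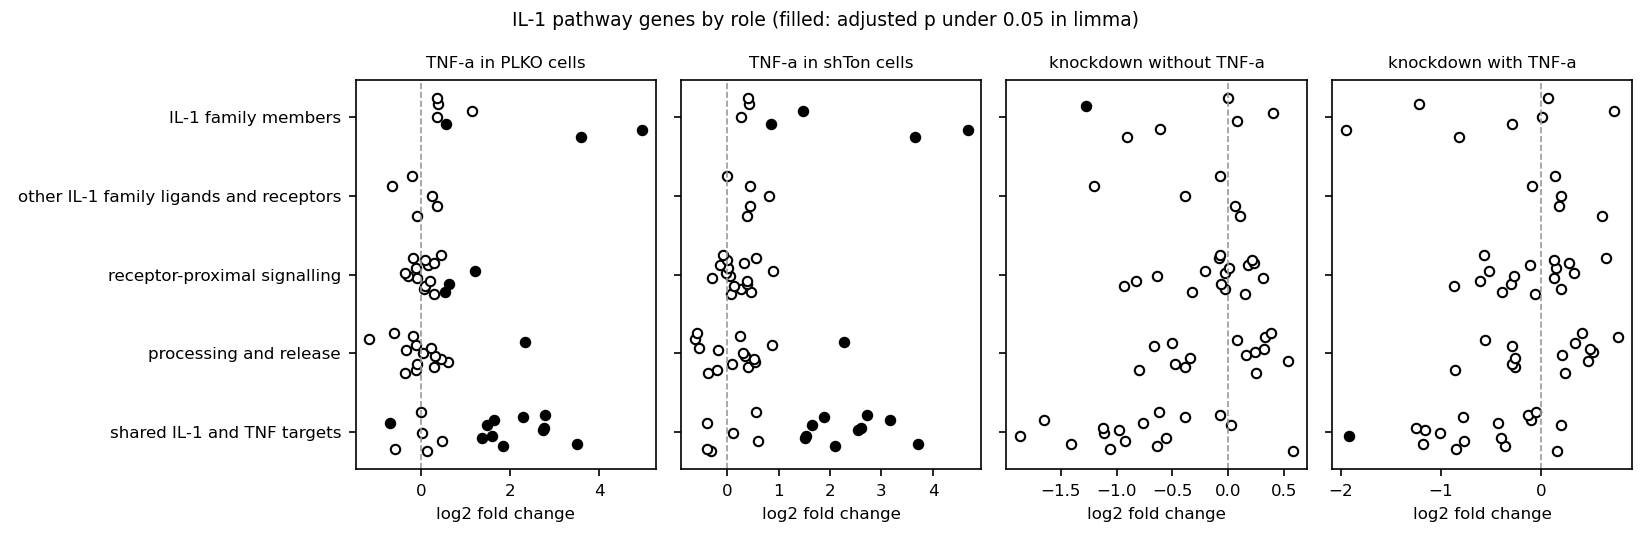
Log2 fold changes of single genes in 4 comparisons, grouped by role from the IL-1 family members at the top to shared IL-1 and TNF targets at the bottom. Each circle is 1 gene, filled where it passed an adjusted p of 0.05 in limma. With TNF-a the filled circles lie mainly among the shared targets, where 10 genes rose in each background, and in the knockdown panels Il1rn and Il6 are the filled ones.

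Likeness was measured as Pearson's r over the 12 libraries, on log2 values centred on each set, among all genes tested. It is a description in which all genes share libraries and the TNF-a design. Il1a was most like Il1b (r = 0.985), followed by the transcription factor gene Tfap4 (0.985) and the hyaluronan receptor gene Cd44 (0.982). Il1b was most like Cd44 (0.996) and the cytokine subunit gene Il23a (0.987). Il1r1 stood nearest to Spats2 (0.971), the innate receptor gene Tlr2 (0.97) and Ugdh (0.968), and Il1rl1 to the gene of the protease caspase-8, Casp8 (0.983). Il1rn had the weakest nearest neighbour, Cldn12 at 0.897, and its r with Il1a and Il1b was 0.40 and 0.47. The nearest of Il1rap was Rasa2 (0.943) and of Il33 Mtfmt (0.969).

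Leukocytes make IL-1 in many tissues, so their markers are given beside the agonists. Of 10 macrophage markers, 2 were in all tables, Cd68 and Cd14, and their sum was 277 to 346 normalised reads in PLKO_CTR, 186 to 293 in PLKO_TNF, 252 to 524 in shTon_CTR and 299.8 to 677 in shTon_TNF. In control cells the range of this sum with TNF-a did not exceed that without it. In shTon cells the sum was higher with TNF-a in sets 1 and 2 (252 to 299.8 and 524 to 677) and lower in set 3 (471 to 430). The 2 markers went opposite ways by value with TNF-a in control cells, Cd68 by 0.45 and Cd14 by -0.50 (log2). With the knockdown Cd68 changed by -1.04 without and -1.32 with TNF-a, and Cd14 by 0.584 and 1.275. None of these changes of single markers passed in limma. Csf1r and Itgam, listed in the tables with TNF-a-treated libraries, reached 10.7 and 20.6 normalised reads in that of control cells. The other 6 macrophage markers were looked for by symbol and had no entry in any of the tables, and 0 of 6 mast cell and 0 of 5 neutrophil markers were in all tables. The mast cell marker Hdc and the neutrophil marker S100a8 had entries in some tables, and reached 22.9 and 11.4 normalised reads in that of control cells. Of 10 nucleus pulposus and notochord markers, 5 were in all tables (Krt8, Cd24, Foxf1, Pax1 and Lgals3), and 3 of these 5 fell with TNF-a in control cells, Krt8 by 1.10, Pax1 by 1.45 and Lgals3 by 0.97 (log2, adjusted p = 0.023, 0.0232 and 0.011). The genes T, Krt18, Krt19, Car12 and Shh were not in all tables. Of 6 cartilage markers, 1 was in all tables, Hapln1, and Acan, Col2a1, Sox9, Col9a1 and Matn3 were not. Hapln1 fell with TNF-a by 1.63 in control and 2.00 in shTon cells (log2, adjusted p = 0.00682 and 0.0142). What part the cells of these marker lists had in the agonists' rise was not tested.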

How the data were processed

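Gene expression was measured by RNA-seq in 12 libraries. The submitters' processing notes name Novoalign 2.08.01, DESeq2 and the genome build rn5, without their roles. The authors deposited 3 tables of 6 libraries each, holding a normalised signal per gene and library together with log2 fold changes and adjusted p-values, which are NA for some genes and were kept so. The deposited signal is read counts divided by 1 factor per library: 100% of values were whole multiples of 1 read within 0.001. Reads were recovered, and the tables joined over 12899 genes on a common median-of-ratios scale, used for levels, for TNF-a in shTon cells and for the interaction. No source used here gives the read counter, the annotation or how multiply mapped reads were treated.

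Tests used limma 3.58.1 (R 4.3.3) on log2(value + 1) of genes with a mean of at least 10, with a mean-variance trend, the set as a block and Benjamini-Hochberg adjustment over all genes tested at 0.05. Fold changes are on that scale, which understates low genes. The set is in the model because DESeq2 refitted with a set term came close to the authors' deposited fold changes, with a median absolute difference of 0.000416 to 0.000607, and because every pair of libraries with the same set number deviated together from the group means (r = 0.61 to 0.889 in 18 pairs, against -0.741 to 0.18 in 36 others). The comparison of TNF-a in control cells and that of the knockdown without TNF-a share the PLKO_CTR libraries. Alternatives included edgeR 4.0.16 and DESeq2 1.42.0 on recovered reads, TMM scaling, pseudocount 0.1, no filter, no trend, no block, 1 fit of all 12 libraries and leaving out each set or the library labelled shTon_TNF of set 1. Confidence intervals are at 95%. The limma fits of TNF-a in control cells and of the interaction were also run on simulated data, and the other fits were not. The outcome is not reported here.

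All 8 members are named in each comparison, of each list the genes past the threshold (at most the 5 with the largest change), and for likeness the 3 nearest genes. Myd88, Casp1, Il1r2, Nfkbiz and the marker genes printed were named after their values were seen. The members and lists were chosen with earlier results of these data known. Promoters are from RefSeq (GRCr8), while the files use rn5, so no coordinates of the files' genes are given. Every per-sample column had a sample.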

Additional observations from a re-analysis of the deposited data

How the results depend on the processing

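Of 387 log2 values of the members recomputed under an alternative, 331 kept their direction and their side of the threshold, 18 lost a call, 14 gained one and 24 changed sign. The rises of Il1a and Il1b with TNF-a passed under every alternative with the set as a block, in both backgrounds, and the interaction gave 0 calls under every alternative run. With no replicate block, and so no pairing by set, 0, 6, 0 and 0 genes passed for TNF-a in PLKO cells, TNF-a in shTon cells, the knockdown without TNF-a and the knockdown with TNF-a, in place of 1190, 405, 14 and 31, and 0 members passed in any. Without the mean-variance trend these counts were 55, 143, 0 and 0. With all 12 libraries in 1 fit they were 696, 333, 3 and 444. With pseudocount 0.1 the knockdown gave 2 genes without and 12 with TNF-a. In DESeq2 it gave 399 and 367, and TNF-a in shTon cells 619. For the knockdown without TNF-a, 0 members passed without the trend, with all 12 libraries or with pseudocount 0.1, and DESeq2 called 2, as it did with TNF-a.

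Leaving out a set, or for shTon_TNF the library of set 1 alone, gave 545 to 1410 genes and 2 to 5 members for TNF-a in PLKO cells, and 317 to 1105 genes for TNF-a in shTon cells (1011 without that library). It gave 12 to 283 genes and 0 to 1 members for the knockdown without TNF-a, and 32 to 488 genes and 1 to 3 members for the knockdown with TNF-a (383 genes and 2 members without that library). The lowest gene counts came without set 2 for TNF-a in PLKO cells and the knockdown without TNF-a, and without set 3 for the other comparisons. Ranges of log2 values that crossed 0 were -0.43 to 0.90 for Il1rn with TNF-a in PLKO cells, -0.26 to 0.92 for Il1rn and -0.10 to 0.67 for Il33 with TNF-a in shTon cells. For the knockdown without TNF-a they were -0.10 to 0.26 (Il1rap), -0.23 to 1.09 (Il1rl1) and -0.18 to 0.15 (Il33), and with TNF-a -0.18 to 0.11, -0.068 to 1.15 and -0.21 to 0.22. For the interaction they were -0.34 to 0.48 (Il1a), -0.95 to 0.28 (Il1b), -0.30 to 0.17 (Il1rn), -0.16 to 0.026 (Il1rap) and -0.24 to 0.36 (Il33). The interaction also changed sign for Il1b with pseudocount 0.1 (0.12), edgeR (0.87) and DESeq2 (0.94), and for Il1rn in edgeR (-0.054) and DESeq2 (-0.071). The cause of these changes was not tested. Depth limits Il18 and untreated Il1b, with at most 24 and 45 reads in a library.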
